A study of Mus musculus with 7 samples.

Results

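The SAFB family genes Safb, Safb2 and Sltm were followed through RNA precipitated with an EZH2 antibody from mouse embryonic stem cells. Their members in the count table were the features, intervals called as peaks on the pooled wild-type precipitates, that overlapped the annotated span of each gene on its own strand. There were 45 such features of 303889 in all, 11 in Safb, 13 in Safb2 and 21 in Sltm, and each overlapped no other gene on its strand. Features are numbered here from the 5′ end of the gene. The test for a change needed a minimum of counts, which 44 of the 45 features passed; the exception was feature 6 of Sltm.

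The precipitates came from 3 genotypes of a male CAST/B6 stem cell line with a cassette-exchange site at Rosa26. The SAFB DKO group held 2 clones, 13 and 4, in which Safb and Safb2 were both knocked out, and the EZH2 KO group held 2 clones, 12 and 19, without Ezh2. The wild-type (WT) group held 3 lines, the parent and clones 20 and 44. All lines had received doxycycline for 3 days; what it induced was not stated. No label names Sltm as altered. The titles of clones 13 and 4 share 1 replicate number, and values of SAFB DKO are given here with clone 13 before clone 4.

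SAFB (scaffold attachment factor B) proteins are nuclear RNA-binding proteins with a SAP domain that contacts DNA, an RNA recognition motif and a long charged C-terminal part. Safb and Safb2 encode close paralogs best known as corepressors of the oestrogen receptor and as regulators of splicing, and Sltm encodes the third member, SAFB-like transcription modulator. By the title of the series, the EZH2 antibody also recognises SAFB, so the precipitates are read here as RNA that came down with that antibody. In such counts the amount of a transcript and how well it was captured cannot be told apart, and neither can fewer cells that carry it and less of it per cell. The lines of a group are separate clones, so the spread within a group holds differences between clones.

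Total counts were 18738499 and 15812517 in SAFB DKO, 7050832 and 8353603 in EZH2 KO and 19024702 to 21832539 in WT, so the EZH2 KO values carry more counting error. The EZH2 KO libraries are named in another style than the rest; if they were sequenced separately, genotype and run cannot be told apart. Ezh2 itself had 15 and 1 counts in EZH2 KO against 3760, 4285 and 3167 counts in WT. Of 10 stem cell markers, 9 had features, all with counts, and their summed level was 1690 to 1691 CPM (counts scaled to the size of the library) in SAFB DKO, 943 to 1061 CPM in EZH2 KO and 1189 to 1261 CPM in WT. The 3 of 8 fibroblast markers with features summed to 6.40 to 10.1 CPM in SAFB DKO, 3.15 to 7.82 CPM in EZH2 KO and 7.99 to 9.97 CPM in WT; those of 6 of 8 primitive endoderm markers were 93.0 to 114 CPM, 138 to 143 CPM and 109 to 132 CPM, and those of 3 of 6 neural markers 80.5 to 81.6 CPM, 139 to 157 CPM and 199 to 279 CPM, in the same order of groups. Single markers differed from these sums. Zfp42 fell in SAFB DKO, at -1.07 (edgeR, adjusted p = 7.7e-05), against the direction of the stem cell sum. Of the primitive endoderm markers, Sox7 fell there, at -3.76 (adjusted p = 7.6e-05), as did Gata4 and Dab2. Lama1, which makes up most of the primitive endoderm sum, was not called. In EZH2 KO, Zfp42 and Klf4 rose, by 0.97 and 0.67 (edgeR, adjusted p = 1.7e-04 and 0.0021), while Pou5f1, Nanog, Tdgf1, Dppa5a and Utf1 fell. Nes, which makes up most of the neural sum, fell in SAFB DKO, at -1.72, and in EZH2 KO, at -0.97 (edgeR, adjusted p = 3.9e-06 and 5.1e-04). Pax6 fell in EZH2 KO only, at -2.30 (edgeR, adjusted p = 0.0010), and Map2 in SAFB DKO only. Col3a1, Gata6 and Pdgfra had no count in SAFB DKO, but only 8, 11 and 12 counts over the WT libraries, too few to be tested. These counts of 0 allow up to 57.55%, 41.85% and 38.37% of WT. The part of such markers in the results was not tested.

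Safb and Safb2 lie head to head on chromosome 17 (mm10), with 239 bases between their annotated starts. Safb spans chr17:56584825-56606294 on the plus strand and Safb2 spans chr17:56560965-56584585 on the minus strand. Sltm lies at chr9:70542754-70592234 on the plus strand. In the main coding transcript of each gene, to which exon numbers refer, exon 6 was 28 bases long and exon 8 was 50 bases long in all 3 genes, and the large exon 7 between them measured 577 bases in Safb, 658 in Safb2 and 469 in Sltm.

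The feature with the highest mean level lay in this stretch in each gene. In Safb it was feature 5, chr17:56597787-56598514, which covers exon 6 and most of intron 6. Feature 6 came next, which runs from within exon 7 through intron 7 into exon 8. Of its bases 47.2% are exonic, and it counted as intronic, so sums over exonic features leave it out. In Safb2 it was feature 4, chr17:56576162-56576836, wholly inside intron 6, with feature 5 across exon 7 and intron 7 next. In Sltm it was feature 10, chr9:70572705-70574626, which runs from intron 6 through exons 7 and 8. The central 300 bases of these features are shown because most results below turn on them. They are read 5′ to 3′ on the strand of the gene from GENCODE M21 transcripts whose exon covers them (Safb-204 and Safb2-209, both annotated as retained introns, and exon 7 of the main Sltm transcript), at chr17:56598001-56598300 plus, chr17:56576350-56576649 minus and chr9:70573516-70573815 plus. Capitals mark GAAGA, a purine-rich word of the kind that SAFB proteins are known to bind.
Safb: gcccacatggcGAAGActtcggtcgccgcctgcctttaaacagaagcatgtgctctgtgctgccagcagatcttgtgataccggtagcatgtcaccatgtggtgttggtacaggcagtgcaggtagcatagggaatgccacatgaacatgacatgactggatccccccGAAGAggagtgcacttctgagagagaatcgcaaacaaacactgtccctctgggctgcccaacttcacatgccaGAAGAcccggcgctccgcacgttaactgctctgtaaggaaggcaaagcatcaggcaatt
Safb2: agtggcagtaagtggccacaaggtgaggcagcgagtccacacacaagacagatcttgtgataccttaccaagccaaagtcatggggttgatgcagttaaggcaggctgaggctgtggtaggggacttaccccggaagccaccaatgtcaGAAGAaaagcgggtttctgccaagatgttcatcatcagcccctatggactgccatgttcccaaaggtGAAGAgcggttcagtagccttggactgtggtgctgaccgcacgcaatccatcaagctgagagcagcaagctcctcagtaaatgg
Sltm: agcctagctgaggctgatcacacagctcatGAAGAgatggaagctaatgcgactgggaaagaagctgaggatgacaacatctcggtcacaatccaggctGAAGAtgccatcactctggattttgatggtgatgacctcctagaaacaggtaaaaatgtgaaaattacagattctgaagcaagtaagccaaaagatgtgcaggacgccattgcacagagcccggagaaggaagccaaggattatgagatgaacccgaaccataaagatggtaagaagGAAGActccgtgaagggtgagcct

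GAAGA occurred 3 times in the Safb window, 2 times in the Safb2 window and 3 times in the Sltm window, and not on the opposite strand of any of them. The word is common: 46.6% of all 328695 windows of the same length, cut from the longest transcript of each GENCODE gene, held it on the transcribed strand and 37.8% on the other. At least 3 occurrences were found in 6.55% of those windows and at least 2 in 18% of them. Purines made up 52.7% of the Safb window, 56.3% of the Safb2 window and 62.7% of the Sltm window, against a median of 50.7%. Among all windows, 35.8% were at least as purine-rich as that of Safb, 15.1% as that of Safb2 and 2.24% as that of Sltm.

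The introns of Safb and Safb2 also shared letters. Between the retained-intron exons that cover both features, 2 runs of 16 identical bases were found when runs of 13 or more were searched. They lie in the same order in both introns: the first begins 122 bases past the end of exon 6 in Safb (chr17:56597937-56597952) and 130 bases past it in Safb2 (chr17:56576733-56576748), the other 252 and 277 bases past it (chr17:56598067-56598082 and chr17:56576586-56576601). Of the 328695 windows, 1 held either run on either strand, and it belonged to Safb. The windows come from the longest transcript of each gene, which leaves out most intron sequence. They did not hold the Safb2 copies either, so the count cannot show how rare the runs are.
Run 1 of intron 6: AGAGATTGGAAACCCA
Run 2 of intron 6: CAGATCTTGTGATACC

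Safb and Safb2 were nearly absent from the SAFB DKO precipitates, while Sltm was lower in SAFB DKO and higher in EZH2 KO than in WT, differences that rest on its feature 10. Summed over its features, Safb had 1.41 and 0.592 CPM in SAFB DKO, 284 and 314 CPM in EZH2 KO and 239, 245 and 117 CPM in WT. Safb2 had 2.92 and 0.807 CPM in SAFB DKO, 615.5 and 749 CPM in EZH2 KO and 289, 302 and 124 CPM in WT. For both genes the SAFB DKO libraries lay far below all others and WT clone 44 lay well under the other WT lines, and the EZH2 KO libraries were above every WT library.

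Sltm had 195 and 213 CPM in SAFB DKO, 461.5 and 586 CPM in EZH2 KO and 320, 336 and 369 CPM in WT. The 3 groups of Sltm values did not overlap, though how many of all genes separate in this way was not counted. Clone 44 did not stand apart in this gene total.

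**Figure D1:**
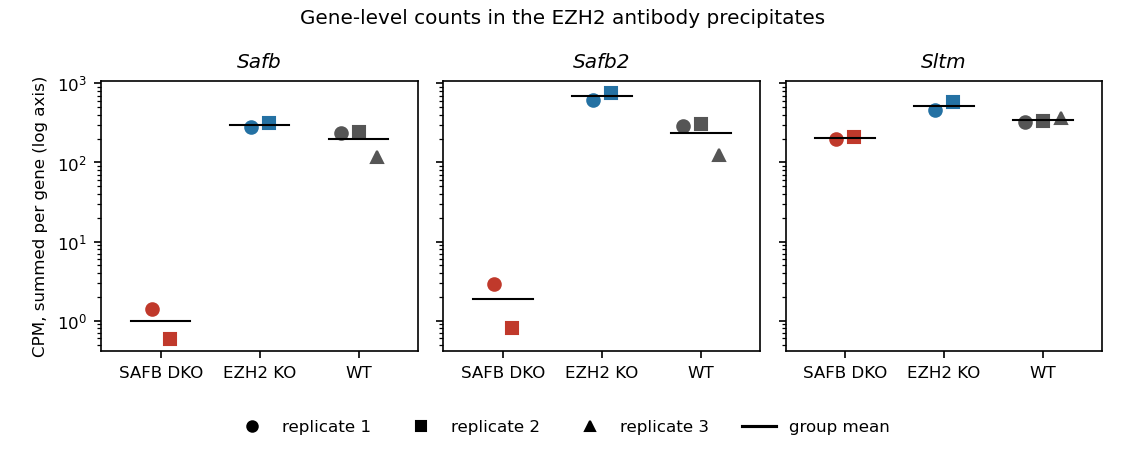
Gene-level CPM (log axis), summed over the features of Safb, Safb2 and Sltm, in SAFB DKO, EZH2 KO and WT; each point is 1 library, its shape the replicate, and bars are group means. Safb and Safb2 average 1.00 and 1.86 CPM in SAFB DKO, against 200.2 and 239 CPM in WT, while Sltm averages 204 CPM in SAFB DKO against 342 CPM in WT.

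Safb fell in SAFB DKO, with a log2 fold change of -7.59 ± 0.41 (SE; edgeR, adjusted p = 9.5e-08), and so did Safb2, at -6.95 ± 0.49 (adjusted p = 2.8e-07). As Safb and Safb2 are the genes deleted, these values check the labels. Sltm fell too, at -0.75 ± 0.14 (edgeR, adjusted p = 6.2e-04), against a median of -0.23 over all 16710 genes tested, of which 34.6% fell and 15.3% rose. In EZH2 KO, Safb2 rose by 1.52 ± 0.32 (edgeR, adjusted p = 0.0019) and Sltm by 0.62 ± 0.13 (adjusted p = 0.0023), against 25.3% of genes that rose. Safb was not called in EZH2 KO, at 0.58 ± 0.26 (edgeR, adjusted p = 0.077). Summed over its exonic features alone, Safb fell there, at -0.68 (edgeR, adjusted p = 0.011). The median over single exonic features of all genes was -0.63 in EZH2 KO against WT, so this fall is not particular to Safb.

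In SAFB DKO against EZH2 KO, Sltm fell, at -1.36 ± 0.15 (edgeR, adjusted p = 3.2e-06), where 41.2% of genes fell and 28.8% rose; since WT cancels out, this tests whether the knockouts differ in their effect on Sltm. Both of these Sltm directions turned when feature 10 was left out or counted apart. Over exonic features alone Sltm fell in EZH2 KO, at -0.79 (edgeR, adjusted p = 0.0012). It was higher in SAFB DKO than in EZH2 KO, at 0.67 (edgeR, adjusted p = 0.0028). Single exonic features of all genes had medians of -0.63 and 0.98 in these comparisons, so these signs are not particular to Sltm. The comparisons with WT share the WT libraries. Without WT clone 44, the EZH2 KO value was 0.32 for Safb, 1.22 for Safb2 and 0.69 for Sltm, and Safb2 and Sltm were still called.

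Per kilobase of feature, Safb2 stood highest in WT, at 62.1 ± 25.8 CPM per kb (SD, n = 3), above Safb at 38.3 ± 13.8 and Sltm at 34.2 ± 2.5. The ranges of 1 SD around neighbours in this order overlapped. In EZH2 KO, Safb2 at 177.5 ± 24.5 CPM per kb (SD, n = 2) exceeded Safb at 57.3 ± 4.1 and Sltm at 52.4 ± 8.8 by more than the spread, and Safb and Sltm did not differ beyond it. In SAFB DKO, Sltm led at 20.4 ± 1.2 CPM per kb, with Safb2 at 0.485 ± 0.389 and Safb at 0.192 ± 0.111.

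Of the counts of the 3 genes together, Sltm made up 97.8% and 99.35% in SAFB DKO, 33.9% and 35.5% in EZH2 KO and 37.75%, 38.0% and 60.5% in WT. Safb2 made up 45.2% and 45.4% in EZH2 KO against 34.1%, 34.2% and 20.3% in WT, so its share was higher in both EZH2 KO libraries than in any WT library. With 2 against 3 libraries, the exact two-sided permutation test can give no p under 0.1, which is the value it gave for Safb2 in EZH2 KO against WT. Safb made up 20.9% and 19.0% in EZH2 KO against 28.1%, 27.7% and 19.2% in WT, so the groups overlapped (exact permutation p = 0.3).

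**Figure D2:**
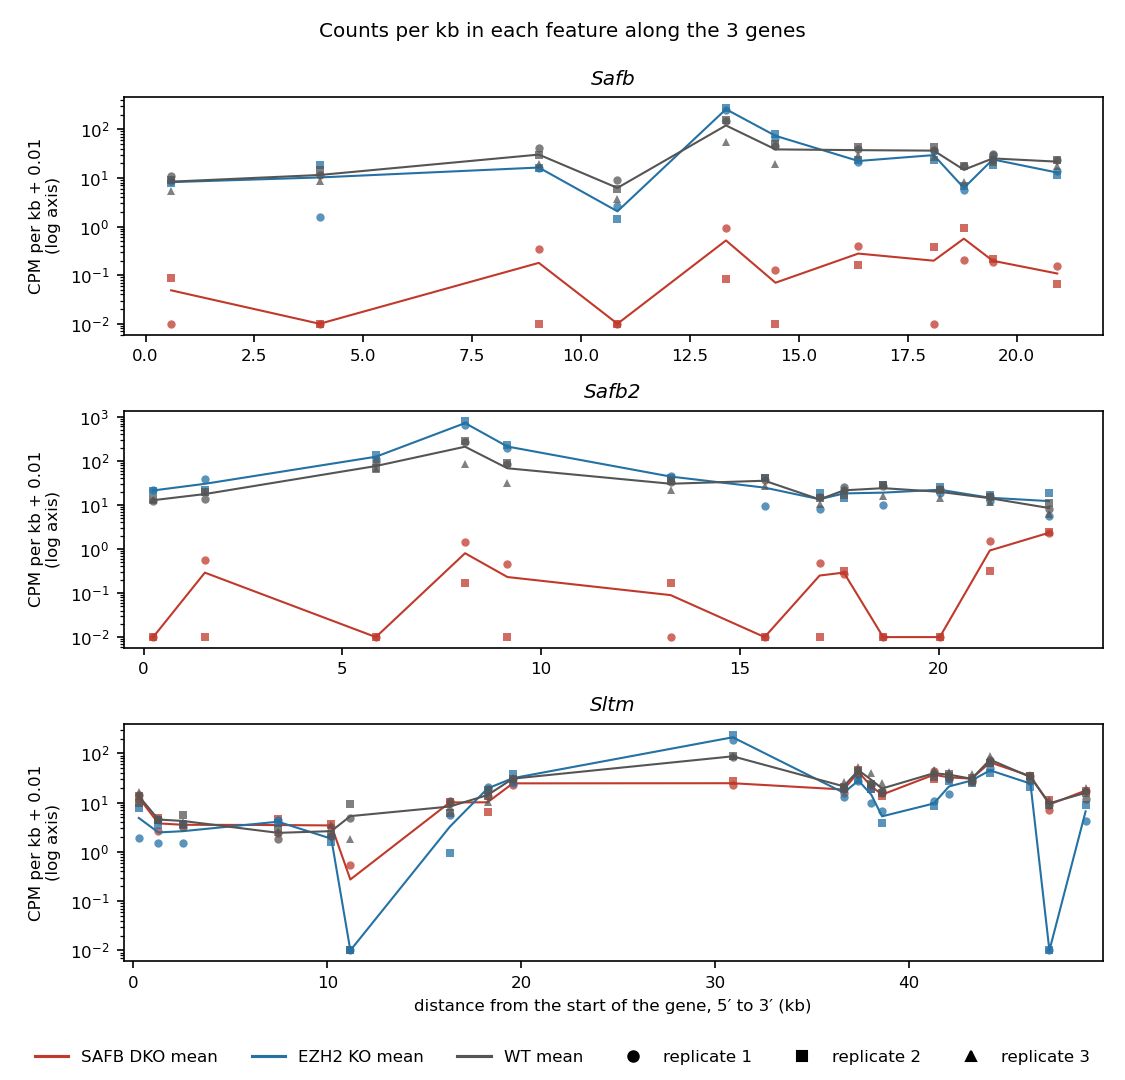
CPM per kb of feature, plus 0.01, on a log axis against the distance of the feature's middle from the start of the gene, for Safb, Safb2 and Sltm; points are single libraries, lines are group means. The highest point of the WT and EZH2 KO lines is at intron 6 to exon 8 in each gene; the SAFB DKO line is near the floor along Safb and Safb2 and is near WT along Sltm except at that feature and at feature 6, the one not tested.

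All 11 Safb features fell in SAFB DKO, with log2 fold changes between -9.02 and -4.72 for the 9 with a count left there, where 17.4% of all features fell and 2.26% rose. Feature 5 had 15 and 1 counts in SAFB DKO against 2346, 2421 and 764 counts in WT, so that 0.444% of the WT level was left with both clones pooled (exact 95% interval 0.254% to 0.722%). Clone 13 alone was at 0.769% and clone 4 alone at 0.0605%, so the clones lay farther apart than the pooled interval, which covers counting error only. Feature 9, in exon 15, kept most, with 1 and 4 counts in SAFB DKO against 92, 89 and 38 in WT, or 3.504% (1.13% to 8.30%), with 1.295% in clone 13 and 6.11% in clone 4. Features 2 and 4 had no count in SAFB DKO, which allows up to 3.34% and 10.5% of WT. In the test of each feature against its own gene (edgeR diffSpliceDGE), no Safb feature was called in SAFB DKO, where 4.69% of all features lay lower than their gene and 3.72% higher.

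In Safb2, 12 of 13 features fell in SAFB DKO, and the 3′ end kept the most counts. Feature 4, in intron 6, had 21 and 2 counts in SAFB DKO against 3841, 3976 and 1120 in WT, or 0.395% of WT (0.250% to 0.593%), with 0.666% in clone 13 and 0.0749% in clone 4. Feature 3, in exon 4, had none in SAFB DKO against 242, 180 and 153 counts in WT, which allows up to 0.801%. The 5 features numbered 7 to 11 had between 0 and 2 counts per SAFB DKO library.

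Feature 12 of Safb2, chr17:56562940-56563658 over exons 19 to 21, had 24 and 4 counts in SAFB DKO against 244, 231 and 161 in WT, so 6.76% was left (4.45% to 9.86%), with 10.7% in clone 13 and 2.10% in clone 4. Feature 13, chr17:56561733-56561892, lies past the last exon of the main Safb2 transcript, within the long 3′ untranslated region of Safb2-202. That exon is not in the basic set of transcripts used for exonic shares, so feature 13 counted as free of exonic bases. It had 8 and 7 counts in SAFB DKO against 28, 38 and 19 in WT, or 27.1% (14.5% to 47.2%) and close to that in each clone, and was the only Safb2 feature not called (log2 fold change -1.85 ± 0.67, edgeR adjusted p = 0.064). Both features lay above their gene in SAFB DKO, by 3.08 (edgeR diffSpliceDGE, adjusted p = 6.7e-05) and 5.12 (adjusted p = 4.3e-05) on the log2 scale.

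Within 5 kb past the end of Safb2 on the minus strand lay 3 features, which belong to no annotated gene. The nearest, 138 bases past the end at chr17:56560527-56560827, had 15 and 7 counts in SAFB DKO against 33, 27 and 11 in WT (47.6%, interval 28.1% to 77.7%). The next kept 58.1% and the farthest, 4417 bases past the end, had 30 and 15 counts in SAFB DKO against 15, 9 and 10 in WT, 203% of WT. None of the 3 was called (edgeR adjusted p between 0.34 and 0.65).

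**Figure D3:**
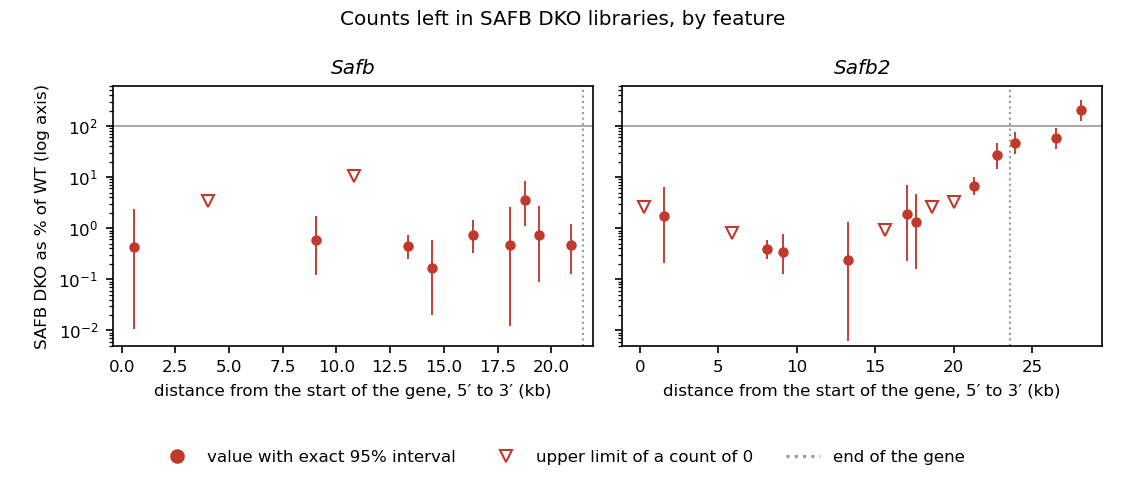
Normalised SAFB DKO counts, both clones pooled, as a percentage of WT (log axis) for each feature of Safb and Safb2 and the features within 5 kb past their ends, against distance from the start of the gene; bars are exact 95% intervals for counting error, open triangles the upper limit of a count of 0, and the dotted line marks the end of the gene. Safb stays at or under 3.504% where counts remain, while the last 2 Safb2 features are at 6.76% and 27.1%.

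In Sltm, which was not deleted, 1 feature passed the test in SAFB DKO. Feature 10, at intron 6 to exon 8, had 43.1 and 52.0 CPM in SAFB DKO against 159, 173 and 170 CPM in WT. It fell, at -1.82 ± 0.16 (edgeR, adjusted p = 3.5e-07), and also against its own gene, at -1.07 (edgeR diffSpliceDGE, adjusted p = 1.4e-04). It was the only one of 20 tested Sltm features called, where 17.4% of all features fell and 2.26% rose. Of its WT level, 28.2% was left (26.9% to 29.6%). The other 19 tested features had log2 fold changes between -0.48 and 0.52. Feature 6, too low to be tested, had 1 and 0 counts in SAFB DKO, none in EZH2 KO and 9, 17 and 3 counts in WT.

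The Sltm features next in level did not pass the test. Feature 18, over exons 18 and 19, had 41.2 and 40.5 CPM in SAFB DKO against 44.8, 40.5 and 54.5 CPM in WT, so the groups overlapped. Feature 9, over exons 4 and 5, had 27.2 and 30.6 CPM in SAFB DKO against 35.8, 35.0 and 37.2 CPM in WT, a log2 fold change of -0.32 ± 0.20 that was not called (edgeR adjusted p = 0.33). Feature 12, over exons 11 and 12, had 17.3 and 20.4 CPM in SAFB DKO against 17.2, 20.3 and 24.4 CPM in WT. Against the gene, features 5 and 21 lay higher in SAFB DKO, by 1.13 (edgeR diffSpliceDGE, adjusted p = 0.047) and 0.90 (adjusted p = 0.019). That gene value includes the fall of feature 10, and neither feature was called in SAFB DKO against WT.

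The gene-level fall of Sltm rested on feature 10. When every gene was summed without its highest feature, an alternative added after the data were seen, Sltm was at -0.16 in SAFB DKO against WT (edgeR adjusted p = 0.40). With exonic features alone it was at -0.13 (adjusted p = 0.49), and with features free of exonic bases at -0.04 (adjusted p = 0.92). Safb2 fell under each of these sums and Safb under the 2 it has a value for, since none of its features is free of exonic bases. The rise of Sltm in EZH2 KO turned as well: it was at -0.58 without the highest features (adjusted p = 0.0067), -0.79 with exonic features alone (adjusted p = 0.0012) and -0.74 with features free of exonic bases (adjusted p = 0.031). In SAFB DKO against EZH2 KO, Sltm was at 0.42, 0.67 and 0.70 under the same sums. Single exonic features of all genes had a median of 0.98 in that comparison and -0.63 in EZH2 KO against WT. In SAFB DKO against WT their median was 0.32, and that of intronic features was -0.31. The exonic sum of Sltm, at -0.13, thus lay below the exonic median there, a gap that was not tested.

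In EZH2 KO the same stretch of all 3 genes was higher than in WT. Sltm feature 10 had 353 and 461 CPM in EZH2 KO against 159, 173 and 170 CPM in WT and rose by 1.28 ± 0.15 (edgeR, adjusted p = 5.3e-05). Safb2 feature 4 had 437 and 531 CPM in EZH2 KO against 177, 187 and 58.5 CPM in WT and rose by 1.78 ± 0.36 (adjusted p = 0.0035). Safb2 feature 5, next to it over exon 7, had 119 and 143 CPM in EZH2 KO against 51.2, 55.3 and 19.5 CPM in WT and rose by 1.64 ± 0.33 (adjusted p = 0.0035).

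At each of these 3 features both EZH2 KO libraries lay above every WT library. How many of all features separate in this way was not counted. Safb feature 5 had 177 and 199 CPM in EZH2 KO against 108, 114 and 39.9 CPM in WT and rose by 1.11 ± 0.34 (edgeR, adjusted p = 0.038), and feature 6 rose by 0.93 ± 0.30 (adjusted p = 0.048). Across all features 7.5% rose in EZH2 KO and 8.07% fell. The 2 Safb calls ended when any 1 WT library was left out, and under 2 other scalings of the libraries, where 2 or 3 Safb features fell. Without clone 44, 2 Safb2 features and 1 Sltm feature rose. A DESeq2 Wald test called no Safb2 feature as higher.

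In EZH2 KO, 16 of the 20 tested Sltm features had a negative log2 fold change. Of the 20, 5 fell, all between exon 14 and the last exon. Over all features the median was -0.21 in this comparison, and 8.07% fell. Feature 15, in exon 15, had 1.95 and 1.57 CPM in EZH2 KO against 7.35, 6.07 and 8.35 CPM in WT and fell, at -2.03 ± 0.38 (edgeR, adjusted p = 0.0020). Feature 21, in the last exon, had 2.71 and 5.82 CPM in EZH2 KO against 7.68, 9.88 and 12.95 CPM in WT and fell, at -1.26 ± 0.35 (adjusted p = 0.023).

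Feature 20, inside intron 20, had no count in either EZH2 KO library, against 65 and 90 counts in SAFB DKO and 83, 79 and 92 counts in WT. With a floor of 3 counts over the EZH2 KO group, it was at least 17.8-fold lower there than in WT. Features 14 and 18 fell, at -1.86 ± 0.47 and -0.72 ± 0.20 (edgeR, adjusted p = 0.013 and 0.022). Exonic features as a class had a median of -0.63 in EZH2 KO, and 14.7% of them fell; the 11 exonic Sltm features had a median of -0.80, and 4 fell. The number of Sltm features that fell was 2 without clone 44 and 10 without EZH2 KO clone 19.

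Against their own gene, 11 Sltm features lay lower in EZH2 KO and 1, feature 10, lay higher, by 0.66 (edgeR diffSpliceDGE, adjusted p = 0.034). In Safb, features 3, 7 and 11 lay lower than the gene, at -1.46, -1.32 and -1.32 on the log2 scale (adjusted p = 0.023, 0.014 and 0.018), and in Safb2 features 7 and 12, at -2.04 and -1.48 (adjusted p = 0.0048 and 0.020). Of all features, 7.34% lay lower than their gene in EZH2 KO and 1.4% higher. The gene value includes the highest feature, which holds most counts of each of the 3 genes in EZH2 KO. The features that lay lower than their gene are therefore not separate from the rise of that highest feature.

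**Figure D4:**
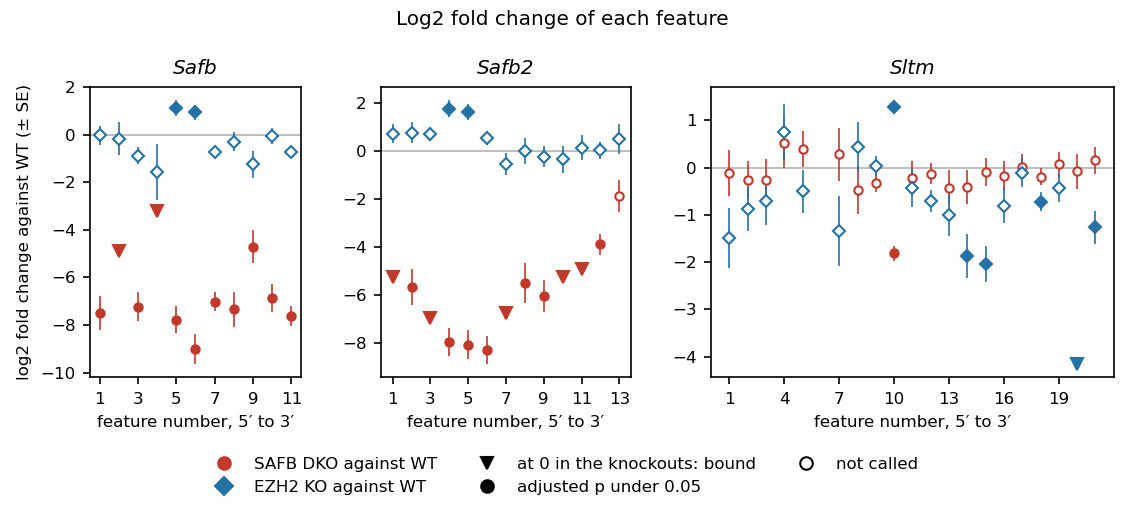
Log2 fold change against WT (± SE) of each tested feature of Safb, Safb2 and Sltm, numbered 5′ to 3′; red circles are SAFB DKO and blue diamonds EZH2 KO, filled where the adjusted p was under 0.05, and triangles are bounds for features with no count in the knockouts. Sltm feature 10 is the one filled red circle of Sltm and its one filled blue diamond above 0.

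The share of each gene's counts in its highest feature shows the shift within libraries, where scaling plays no part. For Sltm, feature 10 held 22.1% and 24.4% of the counts in SAFB DKO, 76.5% and 78.7% in EZH2 KO and 49.6%, 51.6% and 46.0% in WT. The 3 groups were far apart beside the spread within each group. For Safb2, feature 4 held 70.9% in both EZH2 KO libraries against 61.0%, 61.9% and 47.1% in WT, and for Safb, feature 5 held 62.4% and 63.5% in EZH2 KO against 45.2%, 46.5% and 34.0% in WT. The SAFB DKO shares of these 2 genes rest on 11 to 64 counts per library and have wide intervals.

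**Figure D5:**
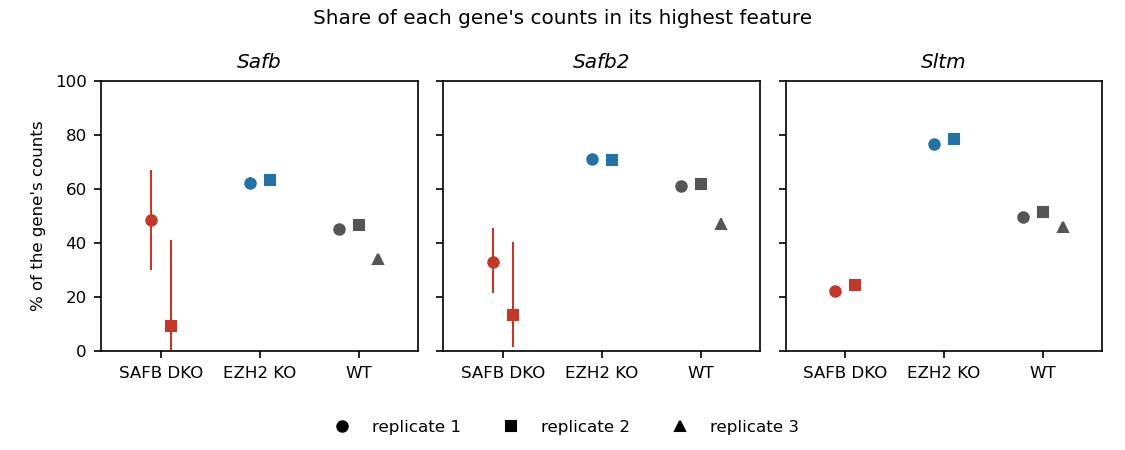
Percentage of each gene's counts that fell in its highest feature, per library, with exact 95% binomial intervals for counting error (most are smaller than the symbols), in SAFB DKO, EZH2 KO and WT. For Sltm the share is 22.1% and 24.4% in SAFB DKO, 76.5% and 78.7% in EZH2 KO and 46.0% to 51.6% in WT.

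Between the knockouts, in SAFB DKO against EZH2 KO, 10 Safb and 13 Safb2 features fell, beside 23.3% of all features; Safb feature 4 was not called (edgeR adjusted p = 0.060). Against their gene, Safb feature 9 lay higher in SAFB DKO, by 4.71 (edgeR diffSpliceDGE, adjusted p = 0.0076), as did Safb2 features 12 and 13, by 4.56 and 6.13, while Safb2 feature 4 lay lower, at -1.25 (adjusted p = 0.043). Sltm feature 10 fell, at -3.10 ± 0.18 (edgeR, adjusted p = 1.4e-09), the only Sltm feature to do so. The 4 Sltm features that rose were numbers 14, 15, 20 and 21, beside 16.6% of all features and 31.7% of exonic ones. Of the Sltm features, 17 lay higher than the gene in SAFB DKO, beside 21.9% of all features. Feature 10 lay lower, at -1.74 (edgeR diffSpliceDGE, adjusted p = 2.3e-09), beside 8.95%. The gene value includes feature 10, so the 17 are not separate from its fall.

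The log2 ratio of intronic to exonic counts of Sltm was -0.37 and -0.13 in SAFB DKO, 2.48 and 2.88 in EZH2 KO and 0.96, 1.03 and 0.64 in WT. It fell in SAFB DKO, at -1.13 ± 0.16 (limma, adjusted p = 1.8e-04), where 33.9% of 8160 genes fell and 5.2% rose. In EZH2 KO the ratio rose by 1.80 ± 0.16 (limma, adjusted p = 2.6e-05), where 34.3% of genes rose and 8.75% fell. Between SAFB DKO and EZH2 KO it differed by -2.93 ± 0.17 (limma, adjusted p = 1.1e-07), where 52.5% of genes fell and 11.7% rose. These values rest on feature 10: 27.0% of its bases are exonic, and a feature counts as intronic below 50%. When any exonic base made a feature exonic, the differences were 0.74 in SAFB DKO and -1.34 in EZH2 KO, with the signs turned.

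WT clone 44 lay below the other WT lines at Safb and Safb2 and not in the total of Sltm, whose exonic features it had at 144 CPM against 108.5 and 110.0 CPM in the other WT lines. Its Safb feature 5 was at 39.9 CPM against 108 and 114 CPM, its Safb2 feature 4 at 58.5 CPM against 177 and 187 CPM, and its Sltm feature 10 at 170 CPM against 159 and 173 CPM. In the same clone, Safb feature 7, over exons 10 to 13, was at 20.6 CPM against 27.8 and 31.0 CPM. Leaving clone 44 out left Safb at -7.89, Safb2 at -7.29 and Sltm at -0.71 in SAFB DKO against WT, all still called.

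Safb had 8 opposite-strand features and Safb2 6, none of them within an annotated gene, and those that overlapped a sense feature held between 1.86% and 19.4% of its WT counts. The one at Safb feature 5, chr17:56598076-56598465, was the only one of them on the authors' short list of 10043 peaks; none of the 45 sense features was on it or on the longer filtered list. It had no count in SAFB DKO against 36 and 31 counts in EZH2 KO and 44, 50 and 9 counts in WT. In SAFB DKO the features on this strand had 0 to 2 counts per library, with 1 exception, chr17:56605087-56606517, at the 3′ end of Safb, with 85 and 61 counts in SAFB DKO against 107, 83 and 64 in WT (log2 fold change -0.18, edgeR adjusted p = 0.78).

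The nearest genes with counts were also measured. In SAFB DKO, 2410015M20Rik, 1158 bases past Safb, had 8.49 and 9.69 CPM against 4.46, 4.00 and 4.96 CPM in WT and rose by 1.02 ± 0.26 (edgeR, adjusted p = 0.0057). It fell in EZH2 KO, at -1.77 ± 0.37 (adjusted p = 0.0019). Rpl36, a ribosomal protein gene whose reads could be shared with copies elsewhere, was called in neither comparison with WT. On the other side, Ptprs, a receptor tyrosine phosphatase, rose in SAFB DKO by 0.57 ± 0.13 (adjusted p = 0.0029) and fell in EZH2 KO, at -1.03 ± 0.14 (adjusted p = 1.0e-04), and Kdm4b, a histone demethylase, was called in neither. Around Sltm, Ccnb2 (cyclin B2) rose in SAFB DKO by 0.54 ± 0.16 and fell in EZH2 KO, at -0.79 ± 0.17 (adjusted p = 0.012 and 0.0024), while Rnf111, Mindy2 and Adam10 were not called. Among all genes, 15.3% rose in SAFB DKO and 22.5% fell in EZH2 KO. Single exonic features of all genes had medians of 0.32 and -0.63 in these comparisons, so the directions are not particular to the neighbours.

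Among 16709 other tested genes, the pattern over the 7 libraries most like that of Safb was that of Gm13771 (Pearson r of log2(CPM + 1) = 0.998), then Ift88os (0.997) and Sh3rf3 (0.996). For Safb2 it was Klhl29 (0.999), Gm6119 (0.998) and Arhgap26 (0.997). For Sltm it was Gm26641 (0.999), Purb (0.999) and Ncapd3 (0.998). Safb ranked 34 for Safb2 and Safb2 ranked 22 for Safb, both at 0.992, while Sltm reached 0.871 with Safb and 0.907 with Safb2. The 7 libraries fall into 3 groups, so the correlations describe the pattern between groups as much as that between single libraries.

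Of 36 genes for nuclear RNA-binding proteins and named SAFB partners, 8 rose in SAFB DKO against WT and 13 fell, with a median log2 fold change of -0.02 against -0.23 over all genes. Rbmx, a splicing regulator of the hnRNP G family with close copies that could share its reads, had the largest fall at -2.60 ± 0.20 (edgeR, adjusted p = 4.5e-07), with means of 8.46 CPM in SAFB DKO against 51.2 CPM in WT. Esr1, the oestrogen receptor, fell, at -2.26 ± 0.40 (edgeR, adjusted p = 4.3e-04), with means of 1.08 CPM in SAFB DKO against 5.24 CPM in WT. Bclaf1, Pnn, Rbbp6, Srrm2, Acin1 and Thrap3, all linked to splicing or mRNA processing, fell, with log2 fold changes of -1.43 to -0.91. The 8 that rose, named after their values were seen, were Polr2a, Srsf1, Hnrnpk, Hnrnpd, Srsf9, Srsf7, Hnrnpa1 and Hnrnpul2, by 0.39 to 0.62; most encode splicing factors or hnRNP proteins as well.

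In EZH2 KO, 12 of the 36 fell and 7 rose, with a median of -0.29 against 0.02. Rbmx rose by 0.87 ± 0.17 (edgeR, adjusted p = 0.0011), and Srrm2, Acin1 and Thrap3 also rose, by 0.49 to 0.60. Bclaf1, Pnn, Rbbp6 and Esr1 were not called there. The largest falls were those of Srsf9, a splicing factor, at -1.81 ± 0.16 (edgeR, adjusted p = 8.0e-06), and Polr2a, the largest subunit of RNA polymerase II, at -1.75 ± 0.20 (adjusted p = 2.8e-05). Of all genes, 15.3% rose in SAFB DKO while 34.6% fell, and 25.3% rose in EZH2 KO while 22.5% fell, so nothing particular to the list is read from its counts.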

How the data were processed

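RNA precipitated with an EZH2 antibody was sequenced from 7 libraries. The deposited counts are raw reads per feature from featureCounts 2.0.3, reverse-stranded, over peaks of the pooled WT precipitates, per the file headers; the build is mm10, per the submitters' processing notes. Subread is named there too; aligner settings and the peak caller are not given in the sources used here. Per the labels, libraries came from a ribosomal depletion kit with an ERCC spike-in. Of the value columns, 3 could be tied to no sample and were not used. The peak lists served only to show which features they hold.

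Features were assigned to GENCODE M21 genes by strand. Exonic shares used the exons of its basic set of transcripts, while transcripts named for a feature came from the full set. Counts were summed per gene over features of exactly 1 gene. All 7 libraries entered 1 edgeR 4.0.16 quasi-likelihood fit (R 4.3.3), with TMM factors from tested features outside the authors' filtered list and Benjamini-Hochberg adjustment over 192964 features or 16710 genes, at a threshold of 0.05. diffSpliceDGE set each feature's log2 fold change against that of its gene's summed tested features, the feature included; the planned wording was the other features. The intron to exon ratio used limma 3.58.1 on log2 of CPM plus 0.5, for genes with a mean of 20 counts in each part. Family shares used exact two-sided permutation tests, which can reach 0.1 at 2 against 3 libraries and 0.333 at 2 against 2. Kept percentages and shares have exact 95% intervals, and limits for a count of 0 use 3 counts; both cover counting error only. Total counts ran from 7050832 to 21832539 per library. Scripts were tested on simulated data. Alternatives were other scalings, DESeq2 1.42.0, other filters, groups fitted alone, each library left out and other sums of features.

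Named features were the 5 highest per gene, those with 3 or more counts left in SAFB DKO, the 5 largest called changes per comparison, and up to 5 per gene and comparison called against their gene; named partners were the 8 largest called changes in SAFB DKO. The members and lists were chosen with earlier results of these data known. The WT parent was matched to its column as the 1 WT library with no clone number.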

Additional observations from a re-analysis of the deposited data

How the results depend on the processing

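Across the alternatives, Safb stayed between -8.39 and -7.04 and Safb2 between -8.20 and -6.15 in SAFB DKO against WT, and Sltm feature 10 between -1.99 and -1.56 there and between 1.01 and 1.53 in EZH2 KO against WT, all past the threshold (edgeR or DESeq2 adjusted p). Safb in EZH2 KO passed it with a mean of at least 50 counts (0.83), was at -0.68 with exonic features only, and at -0.030 without the highest feature of each gene. Sltm in SAFB DKO missed it with exonic features only (-0.13), features with no exonic base (-0.037) and without the highest feature (-0.16). Under the same 3 sums Sltm turned for EZH2 KO over WT (-0.79, -0.74 and -0.58) and for SAFB DKO over EZH2 KO (0.67, 0.70 and 0.42). Counting any exonic base as exonic turned the Sltm ratio, to 0.74 for SAFB DKO over WT, -1.34 for EZH2 KO over WT and 2.08 for SAFB DKO over EZH2 KO. These sums leave out or reclassify feature 10.

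The number of called member features in SAFB DKO against WT was 15 with a mean of at least 50 counts, where fewer features were tested, against 24 with the main filter and 23 to 25 under the other alternatives. Leaving out 1 library at a time gave 5 to 17 called member features in EZH2 KO against WT, against 10 with all libraries, and 0.32 to 0.76 for the log2 fold change of Safb, which passed the threshold only without WT clone 20. Scaling moved the median of all genes by up to 0.47 (column totals, SAFB DKO against EZH2 KO).

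With the replicate block, EZH2 KO against WT gave 0.31 for Safb, 1.204 for Safb2 and 0.67 for Sltm, 9 member features and 6461 genes called against 7992 without it, and no gene-level call of the 3 changed. Same-numbered libraries deviated together with a correlation of 0.06 over 16710 genes, so they share only a number. The EZH2 KO libraries are the shallowest, and the few counts left in SAFB DKO at Safb and Safb2 give most of their features wide intervals.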
